A study of Mus musculus with 8 samples.

Results

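The genes described here carry the mouse symbol Zfp followed by a number, the name given to proteins with zinc fingers, most of them of the C2H2 kind, in which a pair of cysteines and a pair of histidines hold a zinc ion. Members were the Zfp-numbered genes with a normalised read count of at least 10 in at least 2 libraries of a table. The knockout table kept 317 of 397 such genes and the blockade table kept 314 of 401, among 15415 and 13978 genes of all kinds that passed. In all, 300 members passed in both tables and 331 in at least 1. The rule used only levels, but 17 genes passed only in the knockout table and 14 only in the blockade table. A gene that passed only because it was high in 1 group had to differ, so counts over members describe the genes that passed and not the whole family. Of those that did not pass, 31 of 80 in the knockout table and 25 of 87 in the blockade table were listed at 0 in all libraries, and the highest value of any of them in a library was 12.2 and 13.4. Zfp558 (13.8 and 5.88 in knockout cells, against 9.13 and 10.1 in control cells) passed narrowly, and Zfp174 (9.85 and 10.8, against 8.11 and 9.12) did not.

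PolyA RNA was sequenced from mouse CD8+ T cells of spleen and lymph node in 2 separate experiments with 2 libraries in each of 4 groups. In the first, Trim28-/- cells activated in vitro were compared with Trim28fl/fl cells activated in vitro, which still carry an intact, floxed gene. In the second, cells given an antibody against IL-2 were compared with untreated cells, both labelled WT and both kept for 3 days with anti-CD3 and anti-CD28. The design asked which genes TRIM28 regulates and which genes IL-2 regulates. The labels give neither the Cre driver nor the age of the mice, nor whether the paired libraries came from separate mice or cultures, so p-values measure only the spread between libraries, which may be technical.

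Most zinc finger proteins of this family bind DNA, each reading its own sequence through a string of fingers. The largest class carries a KRAB box, which recruits TRIM28 (KAP1). TRIM28 in turn brings the histone H3K9 methyltransferase SETDB1, HP1 proteins and histone deacetylases, and the complex is best known for silencing retroelements and imprinted genes in embryonic cells. KRAB genes lie in clusters of recent copies, and TRIM28 has also been mapped to the 3' ends of zinc finger genes themselves. Activated CD8+ T cells depend on IL-2 for expansion and effector function. Other members have no KRAB box and serve in RNA decay, translation, ubiquitin transfer or cell division.

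Recovered reads ran from 13222831 to 13469789 in the first experiment and from 16618750 to 17069569 in the second. Trim28 had a normalised read count of 415 and 458 in knockout libraries, against 4262 and 4323 in control libraries. Cd8a lay between 4154 and 7217 in all 8 libraries and Cd4 at no more than 9.55. The summed level of 5 myeloid markers was 140 and 152 in knockout libraries, against 245 and 288 in control libraries. In blocked libraries it was 87.8 and 85.4, against 345 and 354 in untreated libraries. That of 3 CD4 T cell markers was 92.6 and 105 in the knockout, against 354 and 370 in the control. With blockade it was 445 and 471, against 400 and 342 untreated. These sums came mostly from Cd40lg and Foxp3. Cd4 itself went the other way in the knockout, at 7.88 and 6.86, against 4.06 and 0 in the control. For 3 NK cell markers the sum was 243 and 268 in the knockout, against 179 and 155 in the control. With blockade it was 161 and 170, against 358 and 377 untreated. Ncr1 was at 0 in every library. In control replicate 2 Klrb1c was at 0 too, so the sum of 155 came from Eomes alone. That sum does not by itself show NK cells. The part of other cells in the results was not tested, and in bulk RNA fewer cells of a kind and less RNA per cell cannot be told apart.

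The promoters of 6 members are shown as examples of changes described here, and were not picked as the largest. Zfp128 and Zfp324 are neighbours near Trim28 that were both higher in knockout cells, as were Zfp94 and Zfp445, while Zfp386 was lower in knockout cells and Zfp36 was lower with IL-2 blockade. Sequences are from RefSeq on GRCm38.p6, from 250 bases before to 50 after the start, 5' to 3' on the gene's strand. Capitals mark matches, on either strand, to a STAT-type motif (TTCNNNGAA), a ZNF143-type motif (ACTACAATT), an ETS-type motif (CCGGAAGT), an NRF1-type motif (GCGCANGCG) or a CCAAT box (CCAAT).
Zfp128, chr7:12880928-12881227, plus strand: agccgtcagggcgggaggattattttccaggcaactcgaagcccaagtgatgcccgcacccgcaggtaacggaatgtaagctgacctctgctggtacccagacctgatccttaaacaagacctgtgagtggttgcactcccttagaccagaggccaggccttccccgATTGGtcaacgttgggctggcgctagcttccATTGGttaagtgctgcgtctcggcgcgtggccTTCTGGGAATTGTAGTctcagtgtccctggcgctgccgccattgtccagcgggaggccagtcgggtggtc
Zfp324, chr7:12965588-12965887, plus strand: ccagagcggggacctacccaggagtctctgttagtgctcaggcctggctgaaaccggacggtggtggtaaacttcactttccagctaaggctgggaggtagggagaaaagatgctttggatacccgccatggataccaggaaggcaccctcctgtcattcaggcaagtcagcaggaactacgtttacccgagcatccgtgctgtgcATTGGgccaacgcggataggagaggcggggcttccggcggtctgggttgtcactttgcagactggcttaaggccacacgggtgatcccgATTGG
Zfp94, chr7:24316617-24316916, minus strand: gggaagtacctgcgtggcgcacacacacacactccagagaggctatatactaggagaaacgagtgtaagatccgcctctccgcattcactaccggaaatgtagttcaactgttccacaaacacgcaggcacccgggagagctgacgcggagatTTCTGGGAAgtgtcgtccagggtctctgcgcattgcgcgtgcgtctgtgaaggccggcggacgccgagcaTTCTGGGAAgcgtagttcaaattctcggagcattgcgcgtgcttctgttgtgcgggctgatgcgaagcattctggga
Zfp445, chr9:122865957-122866256, minus strand: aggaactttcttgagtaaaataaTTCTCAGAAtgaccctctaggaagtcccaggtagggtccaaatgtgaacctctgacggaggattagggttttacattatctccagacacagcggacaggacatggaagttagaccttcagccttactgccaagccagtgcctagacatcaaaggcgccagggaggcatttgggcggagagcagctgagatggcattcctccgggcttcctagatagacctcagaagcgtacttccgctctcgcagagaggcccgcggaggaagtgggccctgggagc
Zfp386, chr12:116047474-116047773, plus strand: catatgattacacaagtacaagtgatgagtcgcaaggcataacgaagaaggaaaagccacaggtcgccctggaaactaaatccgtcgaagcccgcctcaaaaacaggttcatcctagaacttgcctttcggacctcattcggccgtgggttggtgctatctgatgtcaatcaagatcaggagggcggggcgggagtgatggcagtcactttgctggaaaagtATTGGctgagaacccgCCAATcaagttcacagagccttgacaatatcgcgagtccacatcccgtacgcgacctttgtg
Zfp36, chr7:28379179-28379478, minus strand: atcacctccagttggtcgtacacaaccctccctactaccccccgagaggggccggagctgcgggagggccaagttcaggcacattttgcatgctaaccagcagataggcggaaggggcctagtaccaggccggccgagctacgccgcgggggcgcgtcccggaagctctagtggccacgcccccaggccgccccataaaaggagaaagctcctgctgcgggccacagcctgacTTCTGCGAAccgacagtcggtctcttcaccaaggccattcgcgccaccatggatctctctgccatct
The Zfp128 window held a STAT-type and a ZNF143-type match that overlap each other and 2 CCAAT boxes, and the Zfp94 window held 2 STAT-type matches with the same letters. Zfp36 and Zfp445 held 1 STAT-type match each, and Zfp324 and Zfp386 held 2 CCAAT boxes each. A match is a description of letters, not a bound site.

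Of the 331 members, 274 had a promoter in the RefSeq table, with the first listed start taken for each gene. Their median CpG count was 14 per 300 bases, and 10 for the 176 with a KRAB box, against 7 over 27025 genes. Those 27025 were taken whether or not they were tested here, while members had to pass the filter on level. Shares over the tested genes alone were not taken, so these values do not set members apart from other expressed genes. STAT-type letters were in 16.4% of members' promoters, against 8.47% of all promoters; ETS-type letters were in 10.2%, against 4%; ZNF143-type letters in 2.55%, against 0.433%; NRF1-type letters in 10.6%, against 6.47%; and CCAAT in 50%, against 37.9%. STAT-type letters were found in 13 of 50 promoters of members called lower with blockade and in 4 of 63 of those called higher, a split that was not tested. In the knockout the same letters were in 12 of 61 promoters of members called lower and 13 of 84 of those called higher. These letters alone do not tell a STAT site from other elements that hold them. In Zfp128 they overlap the ZNF143-type match.

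Zfp genes went both ways after Trim28 loss. Of 317 members, 107 rose and 78 fell in knockout cells, while 132 did not pass an adjusted p of 0.05 with limma on log2 (normalised read count + 1). Over all genes tested, 32.9% were called higher and 28.2% lower, 61% in either direction. For members the shares were 33.8% higher and 24.6% lower. The groups did not overlap for 249 of 317 members, and for 82.3% of all genes. The median log2 fold change was 0.06 over members and 0.03 over all genes. At 2-fold or more, 23 members were higher and 8 lower; over all genes 4.03% were that much higher and 6.42% that much lower. Without knockout replicate 1 the counts fell to 65 higher and 44 lower, without knockout replicate 2 to 65 and 39, and without control replicate 2 the lower calls fell to 46. DESeq2 called 43 members higher and 34 lower, and 2846 and 2660 of all 15415 genes. Calls over all genes also fell under each of these settings.

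The summed level of Zfp genes in the table was 0.814% and 0.800% of all normalised reads in knockout libraries, against 0.762% and 0.781% in control libraries. With blockade it was 0.954% and 0.915%, against 0.906% and 0.905% in untreated libraries. Members were modestly expressed. The median level over the libraries of the knockout table was 156 normalised reads, against 268 over all genes tested, and per kilobase of exon it was 35.1, against 88.6. Members with a KRAB box stood at 24.9 per kilobase and the others at 72.8. The highest per kilobase in the knockout table were Zfp36 (647), Zfp207 (539), Zfp52 (486), Zfp598 (466), Zfp445 (325) and Zfp703 (310).

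Calls differed by level. All genes were put into 3 equal classes by level. In the lowest, 40 of 116 members were higher in the knockout and 19 lower, where 17.5% and 24.4% of all genes of that class were. In the middle, 54 of 150 members were higher and 38 lower, near the 38.6% and 26.4% of all genes. In the highest, 13 of 51 members were higher and 21 lower, where 42.5% and 33.7% of all genes were. With blockade 25 were higher and 10 lower of 104 in the lowest class, where 15.7% and 26.6% of all genes were. In the middle, 40 were higher and 31 lower of 151, where 39.6% and 26.9% of all genes were. In the highest, 14 were higher and 23 lower of 59, where 38.9% and 33.1% of all genes were. These differences were not tested.

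The KRAB class changed in both directions. A KRAB box was found in 198 members of the knockout table, of which 60 rose, 48 fell and 90 did not pass in knockout cells. Of 104 C2H2 members without a KRAB or SCAN domain, 42 rose and 23 fell. The median log2 fold change was 0.06 for the KRAB class and 0.07 for this second class. All 4 members with a SCAN domain and no KRAB box passed, 1 higher and 3 lower, and of 10 in which no C2H2 finger was found 4 rose and 4 fell. Without knockout replicate 1 the KRAB counts were 34 and 21, without knockout replicate 2 they were 37 and 23, and the lower calls were 27 without control replicate 1 and 23 without control replicate 2; DESeq2 called 21 and 12. With IL-2 blockade the KRAB class had 42 higher and 31 lower of 188, with 115 not passing, and the C2H2 members without KRAB or SCAN had 29 and 23 of 106. Those KRAB counts became 27 higher without untreated replicate 2 and 17 lower without untreated replicate 1, and DESeq2 called 20 higher and 20 lower. The plot of shares by class sets these beside all genes.

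**Figure D1:**
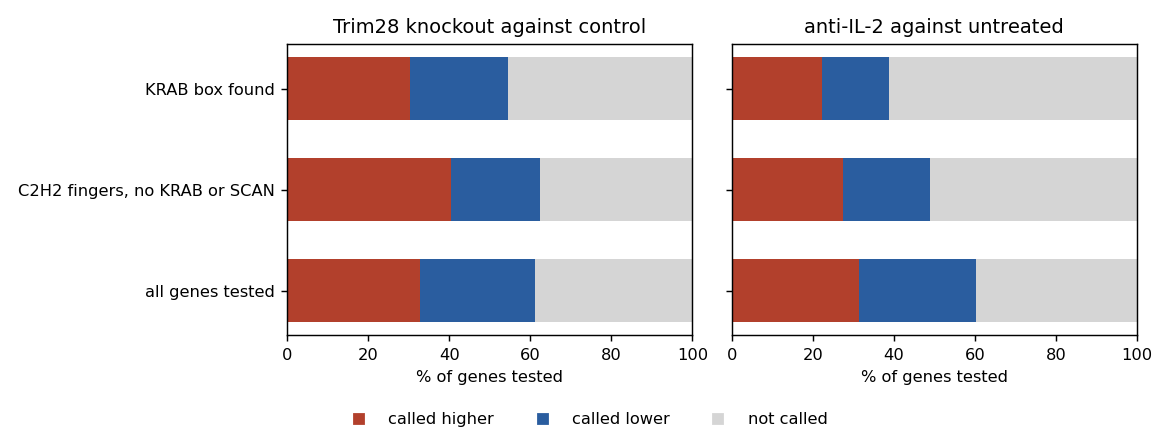
Share of genes tested (x axis, %) called higher, lower or not called, for members with a KRAB box, for C2H2 members without KRAB or SCAN, and for all genes, in the knockout (left) and with anti-IL-2 (right). In knockout cells 30.3% of KRAB members were higher and 24.2% lower, close to the 32.9% and 28.2% of all genes; with blockade 22.3% and 16.5% of KRAB members were called, below the 31.4% and 28.9% of all genes.

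KRAB members also sit at lower levels and share sequence with their copies. By exact 31-base matches between annotated transcripts, the median share of a member's sequence found in another gene was 5.29% for KRAB members and 0.439% for the rest. In 22 KRAB members of the knockout table, and no other member, it was at least 50%. The read counter is not given in the sources used here, so how reads shared by copies were assigned is unknown and the values of these 22 are uncertain. Among them 6 were higher and 8 lower, and 101 and 70 of the 295 others were.

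Of the 23 members at least 2-fold higher in knockout cells, 15 had a KRAB box, as did 198 of all 317 members. On chromosome 7, which holds 80 of the 317, lie 9 of the 23. The lowest of the 3 classes by level, with 116 of the 317, held 19 of the 23. Zfp428 (chr7:24507006-24515682) had 55.1 and 67.6 normalised reads in knockout libraries, against 18.3 and 18.2 in control libraries. The log2 fold change was 1.69, with an SE of 0.16 (adjusted p = 0.00036). Zfp420, with 19 fingers and no KRAB box found (chr7:29859979-29877292), had 245 and 258 reads in the knockout, against 96.4 and 98.3 in the control, a log2 fold change of 1.36 (SE 0.07). Zfp362 (chr4:128773088-128806045) had 254 and 254 in knockout cells, against 96.4 and 103 in control cells (log2 fold change 1.34, SE 0.07). The knockout libraries of all 3 genes lay above both control libraries. Zfp94, a KRAB gene at chr7:24301704-24316666, had 65 and 41.2 reads in the knockout, against 18.3 and 19.3 in the control, with the first knockout library the higher. Zfp808, a KRAB gene of chromosome 13, had 53.2 and 53.9, against 23.3 and 22.3 (log2 fold change 1.20); 43.2% of its sequence occurs in other genes. Zfp27, a KRAB gene close to Zfp420, had 233 and 201, against 98.4 and 93.3. Zfp493, also KRAB, had 29.5 and 34.3, against 13.2 and 6.08, a call that dropping knockout replicate 1 or 2 ended (adjusted p = 0.113 and 0.134).

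Zfp239 had the largest fitted rise of the members called and a wide spread. It had 149 and 118 normalised reads in knockout libraries, against 49.7 and 10.1 in control libraries, or 2.49 on the log2 scale (SE 0.66, adjusted p = 0.0189). The control libraries were far apart from each other. Dropping knockout replicate 1 or 2 ended the call (adjusted p = 0.238 and 0.197), as did DESeq2 (0.086).

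Members that fell in knockout cells were fewer past 2-fold. Zfp629, a gene of 19 fingers at chr7:127607031-127615797, had 17.7 and 30.4 normalised reads in knockout libraries, against 97.4 and 105 in control libraries (log2 fold change -2.08, SE 0.25, adjusted p = 0.000857). Zfp516, known as an activator of brown fat genes, had 77.8 and 79.4 in the knockout, against 151 and 178 in the control (log2 fold change -1.05, SE 0.11). Zfp518a (chr19:40894705-40917947) had 218 and 202, against 407 and 439 (log2 fold change -1.01). All knockout libraries of these 3 were below both control libraries. Zfp386, a KRAB gene, had 111 and 117 in knockout cells, against 209 and 210 in control cells, and Zfp871 had 332 and 292, against 569 and 571. Zfp951 (64 and 74.5, against 119 and 120) and Zfp608 (192 and 189, against 314 and 326) also fell; the call for Zfp608 was lost when the spread was taken from all 8 libraries (adjusted p = 0.0777). Zfp950 had 121 and 129 reads, against 233 and 191, and lost its call on dropping knockout replicate 1 or 2 (0.0783 and 0.0649). Zfp57, which guards imprints in embryonic cells, was barely detected, at 0 and 2.94 in the knockout, against 10.1 and 12.2 in the control; dropping control replicate 1 or 2 ended its call (adjusted p = 0.0912 and 0.109).

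**Figure D2:**
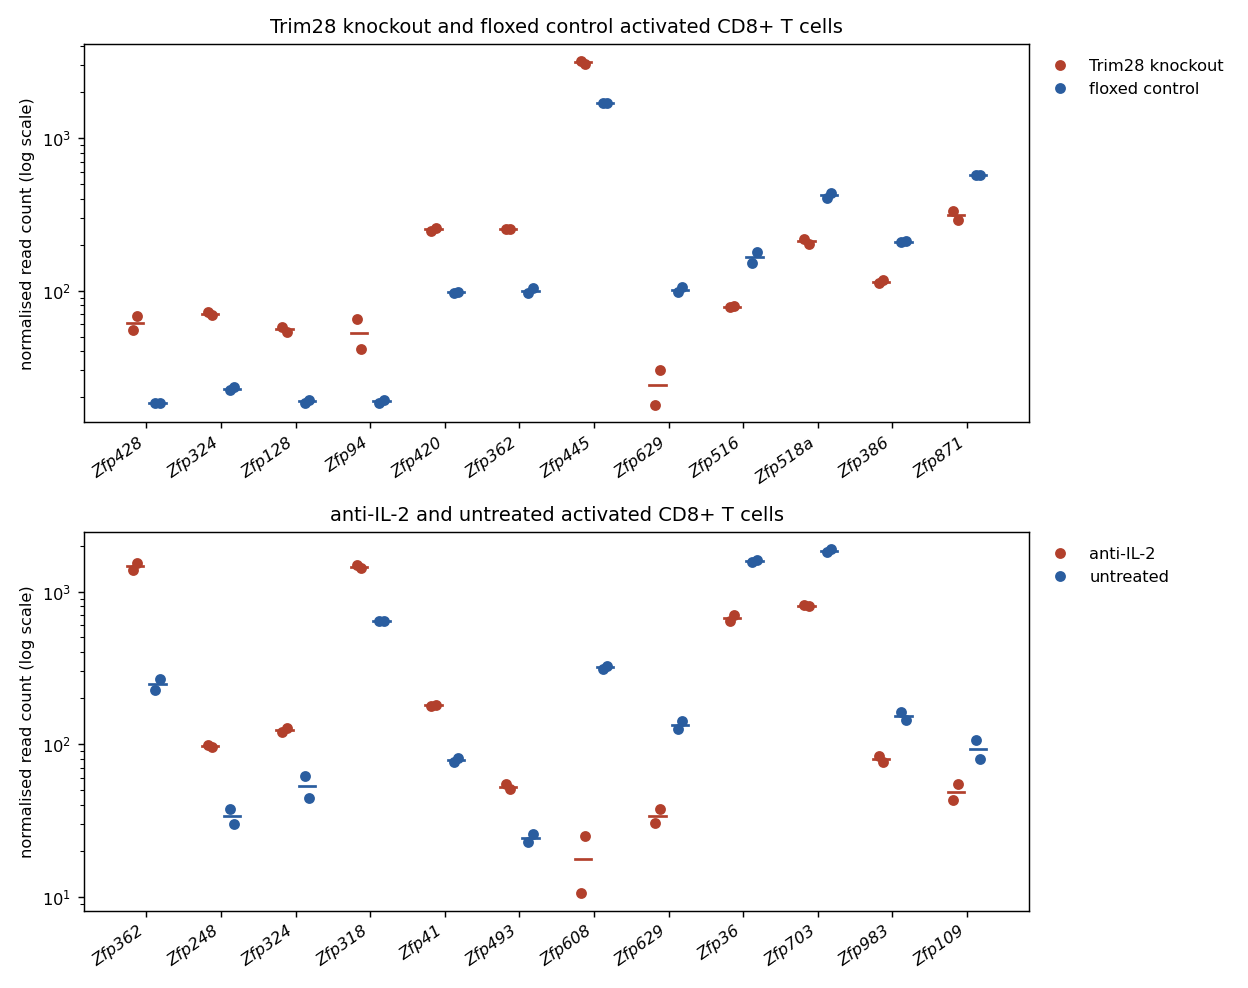
Normalised read counts per library (y axis, log scale) of 12 named members in each experiment; points are libraries and short lines group means, with Trim28 knockout left of floxed control (top) and anti-IL-2 left of untreated (bottom). The groups do not overlap for any gene drawn, and Zfp445 stands highest in the top panel, at 3187 and 3065 in the knockout, against 1684 and 1700 in the control.

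Role lists are set beside the 32.9% of all genes called higher in the knockout and the 28.2% called lower. The list of retroelement and imprint silencers had 1 higher and 3 lower of 7 that passed, of 9 listed. Zfp445, which works with ZFP57 in keeping imprints in the mouse, was the one that rose, at 3187 and 3065 normalised reads in the knockout, against 1684 and 1700 in the control. Its log2 fold change was 0.89 (SE 0.03, adjusted p = 1.69e-05), and it was the 5th of all members by level per kilobase of exon. Zfp809, which silences murine leukaemia proviruses in embryonic stem cells, had 446 and 414, against 478 and 525 (log2 fold change -0.22), and did not pass without either knockout library or control replicate 2 (adjusted p = 0.11, 0.226 and 0.169). Zfp638, known for silencing unintegrated retroviral DNA, had 1199 and 1168, against 1340 and 1424, and lost its call on dropping knockout replicate 1 or 2 (0.0723 and 0.0924). Zfp57 is the remaining one called lower, and it passed the filter through the control libraries alone, so its direction was fixed by the filter. Zfp568, a repressor of a placental Igf2 transcript, had 217 and 212, against 207 and 231, and did not pass (adjusted p = 0.754).

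Of the lymphocyte list, 4 of 5 passed the filter. In knockout cells 1 rose and 2 fell, where 32.9% and 28.2% of all genes did. Zfp318, needed for IgD in B cells, had 664 and 560 normalised reads in the knockout, against 365 and 404 in the control (log2 fold change 0.66, SE 0.09). Zfp36, or tristetraprolin, which binds AU-rich elements and speeds decay of cytokine mRNAs, had 1911 and 1883, against 2570 and 2610 (log2 fold change -0.45, SE 0.03). Zfp91, a ubiquitin ligase, had 2267 and 2218, against 2588 and 2500 (log2 fold change -0.18), and lost its call on dropping knockout replicate 1 or 2 (adjusted p = 0.0535 and 0.0673). Zfp335, known for its part in T cell maturation, had 973 and 895, against 1020 and 971, and did not pass (0.182).

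Among promoter and chromatin partners 4 of 13 rose and 4 fell, or 30.8% each way, where 32.9% and 28.2% of all genes did. Zfp143, which binds promoters and loop anchors, had 414 and 441 normalised reads in the knockout, against 278 and 244 in the control (log2 fold change 0.71, SE 0.08). Zfp281, a repressor studied in stem cells, had 1129 and 1095, against 1571 and 1667 (log2 fold change -0.54), and Zfp263, a SCAN member, had 980 and 944, against 1318 and 1355 (-0.47). For RNA, ribosome and ubiquitin or SUMO genes, 4 of 12 rose and 4 fell. Zfp598, which ubiquitinates collided ribosomes, had 2203 and 2243, against 1373 and 1437 (log2 fold change 0.66, SE 0.04). Zfp106, an RNA-binding protein, had 3307 and 3173, against 2376 and 2480 (0.42), and Zfp346, which binds double-stranded RNA, had 538 and 495, against 380 and 363 (0.47). Of 4 cell division genes 1 rose and 1 fell; Zfp207, a spindle assembly protein, had 3624 and 3581, against 3552 and 3588, and did not pass (adjusted p = 0.69). Of 8 stem cell and developmental genes 2 passed the filter, with Zfp296 higher and Zfp703 lower; the call for Zfp296 was lost without knockout replicate 1 (0.143) or 2 (0.153).

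Of 28 other genes of the pathway, among them partners of these proteins, 22 rose and 3 fell in knockout cells, where 32.9% and 28.2% of all genes did. Their median log2 fold change was 0.39, and their median level was 1104 normalised reads, a range in which 42.5% of all genes were higher. Setdb1 had 6349 and 6245 normalised reads in the knockout, against 945 and 906 in the control. Atf7ip, a SETDB1 partner, had 499 and 433, against 840 and 900, and Rbak, another KRAB zinc finger gene, had 123 and 131, against 177 and 166. These 2 and Trim28 were the genes that fell. With blockade 21 of 28 rose and 2 fell, where 31.4% and 28.9% of all genes did; Setdb1 had 2272 and 2227, against 1645 and 1693, and Trim28 had 7926 and 8528, against 5774 and 5920. Related families were mixed in the knockout, with Zscan 3 higher and 2 lower of 9, Zkscan 3 and 1 of 9, and Zbtb 10 and 15 of 36.

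Calls were also counted by chromosomal position. Members were taken as a run where each gene start lay within 250 kb of the next, and runs with at least 5 members that passed were described. Among all genes tested, 32.9% were higher and 28.2% lower in the knockout, and 31.4% and 28.9% with blockade. In knockout cells 46 of 124 members in runs were higher and 24 lower, or 37.1% and 19.4%, against 61 and 54 of the 193 outside them, or 31.6% and 28.0%. With blockade 28 were higher and 20 lower of 122 in runs, or 23.0% and 16.4%, against 51 and 44 of 192 outside, or 26.6% and 22.9%. The knockout counts in runs became 26 and 13 without knockout replicate 1, 27 and 14 without knockout replicate 2, and 15 lower without control replicate 2; DESeq2 called 18 and 8. On chromosome 7, which holds 80 members, 37 were higher and 13 lower, or 46.2% and 16.2%, where 36.2% and 26.1% of all genes of that chromosome were. On chromosome 4 there were 11 higher and 2 lower of 18 members, against 36.3% and 22.1% of all its genes. On chromosome 17 there were 13 and 16 of 43, against 35.8% and 24.9%. On chromosome 18 there were 0 and 6 of 8, against 27.4% and 34.5%, and on chromosome 19 there were 0 and 3 of 3, against 38.5% and 29.8%.

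The run nearest the deleted gene had 4 of its 5 members higher and none lower, where 32.9% and 28.2% of all genes were. It spans chr7:12804977-12985714, and its genes start between 21.3 and 194 kb before the start of Trim28. Zfp324, with a KRAB box, had 71.9 and 69.6 normalised reads in knockout libraries, against 22.3 and 23.3 in control libraries (log2 fold change 1.59, SE 0.13, adjusted p = 0.000191). Zfp128, also KRAB, had 58.1 and 53.9, against 18.3 and 19.3 (1.53, SE 0.14), and Zfp110 had 905 and 884, against 466 and 510 (0.88, SE 0.06). All 3 had knockout libraries far above the control ones. Zfp446 had 144 and 130, against 116 and 110, and did not pass without any 1 of the 4 libraries (adjusted p between 0.0677 and 0.163) or with edgeR and TMM (0.092). Zfp329 had 287 and 284, against 296 and 274. Of 11 other genes tested within 300 kb of Trim28, 4 were higher and 2 lower in the knockout. A change at the altered allele and a change through loss of the protein cannot be told apart here. With IL-2 blockade, where both groups are labelled WT, 2 of the 5 were higher: Zfp324 had 120 and 128, against 61.3 and 44.3 (log2 fold change 1.23, SE 0.18), and Zfp128 had 52.5 and 49.9, against 36.4 and 31.9, a call lost without either blocked library (adjusted p = 0.0998 and 0.0599) or untreated replicate 2 (0.132).

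On chromosome 4, a run of KRAB genes at chr4:146971976-147848366 had 6 of 7 members higher and none lower in the knockout. Among all genes 32.9% were higher and 28.2% lower. The run had a median log2 fold change of 0.62. With runs joined up to 500 kb it reached from Zfp990 to Zfp933. There 8 of 11 members were higher, and all 11 were fitted above 0. Of these, Zfp990 had 15.8 and 13.7, against 9.13 and 9.12, and was not called. It passed the filter through the knockout libraries alone, so its direction was fixed by the filter. Zfp989 too would not have passed on its control libraries alone. Zfp984 had 663 and 691 normalised reads in knockout libraries, against 470 and 520 in control libraries (log2 fold change 0.45, SE 0.06), a call that dropping knockout replicate 1 or 2 ended (adjusted p = 0.0527 and 0.0628). Zfp991 had 169 and 170, against 118 and 121 (0.50, SE 0.07), and Zfp992 had 172 and 175, against 117 and 124 (0.53, SE 0.08). Weaker genes had larger folds: Zfp987 had 37.4 and 38.2, against 15.2 and 13.2 (1.36, SE 0.17), and Zfp989 had 23.6 and 24.5, against 10.1 and 9.12 (1.24, SE 0.20). These genes are near copies, and 93.1% of the sequence of Zfp987, 88% of that of Zfp991 and 68.8% of that of Zfp984 occurs in other genes, so their values are not independent. Zfp933, with 9.41% shared, had 147 and 141, against 100 and 132, and did not pass (0.0891). Of the 11, 5 passed the filter in the knockout table alone. The count of 8 became 5 without knockout replicate 1, 3 when the spread was taken from all 8 libraries and 2 with DESeq2. With blockade 2 of 6 were called higher: Zfp984, at 348 and 327 against 256 and 272, and Zfp991, at 48.7 and 38.4 against 24.9 and 33. Both calls were lost without untreated replicate 1 (adjusted p = 0.058 and 0.277), and that for Zfp991 also without blocked library A (0.264).

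On chromosome 17, neighbours went opposite ways. The run at chr17:32765496-33394641 had 3 higher and 6 lower of 12 members in the knockout, where 32.9% and 28.2% of all genes were. Zfp871 and Zfp811 at one end fell, the second at 6.89 and 3.92 normalised reads in knockout libraries, against 14.2 in each control library. Next to them Zfp799 had 75.8 and 71.6, against 56.8 and 51.7, and Zfp870 had 67 and 55.9, against 34.5 and 36.5, and both rose. Zfp472 had 160 and 155, against 204 and 199, and Zfp952 had 169 and 174, against 218 and 214, and both fell, the first losing its call without knockout replicate 2 (0.0508) and the second without replicate 1 (0.0516). Without either knockout library 1 was higher and 3 lower; DESeq2 called 0 higher and 1 lower. With blockade 3 were higher and 2 lower. Zfp811 had 0.955 and 6.71 in blocked libraries, against 22.9 and 24.7 in untreated libraries, and Zfp799 had 152 and 141, against 74.8 and 84.5, and this pair of neighbours was called in opposite directions in both experiments. Zfp811 passed the filter through the control and untreated libraries alone, so it could only come out lower. The knockout call for Zfp811 was lost without control replicate 1 (adjusted p = 0.0681) or 2 (0.0673), and that for Zfp799 without knockout replicate 1 (0.0994) or 2 (0.0746) or control replicate 2 (0.0912).

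Other runs are set beside the 32.9% of all genes higher and 28.2% lower in the knockout, and the 31.4% and 28.9% with blockade. The largest run, of 22 members at chr13:67038596-67827002, had 4 higher, 5 lower and 13 not called in the knockout, and 4, 5 and 12 with blockade. Its top fitted value belongs to Zfp708, a KRAB gene with 95.6% of its sequence found in other genes, which had 58.1 and 55.9 normalised reads in the knockout but 0 and 50.7 in the control, and did not pass (adjusted p = 0.167). In a run of 5 KRAB genes on chromosome 9, Zfp560 to Zfp846, none passed in the knockout.

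**Figure D3:**
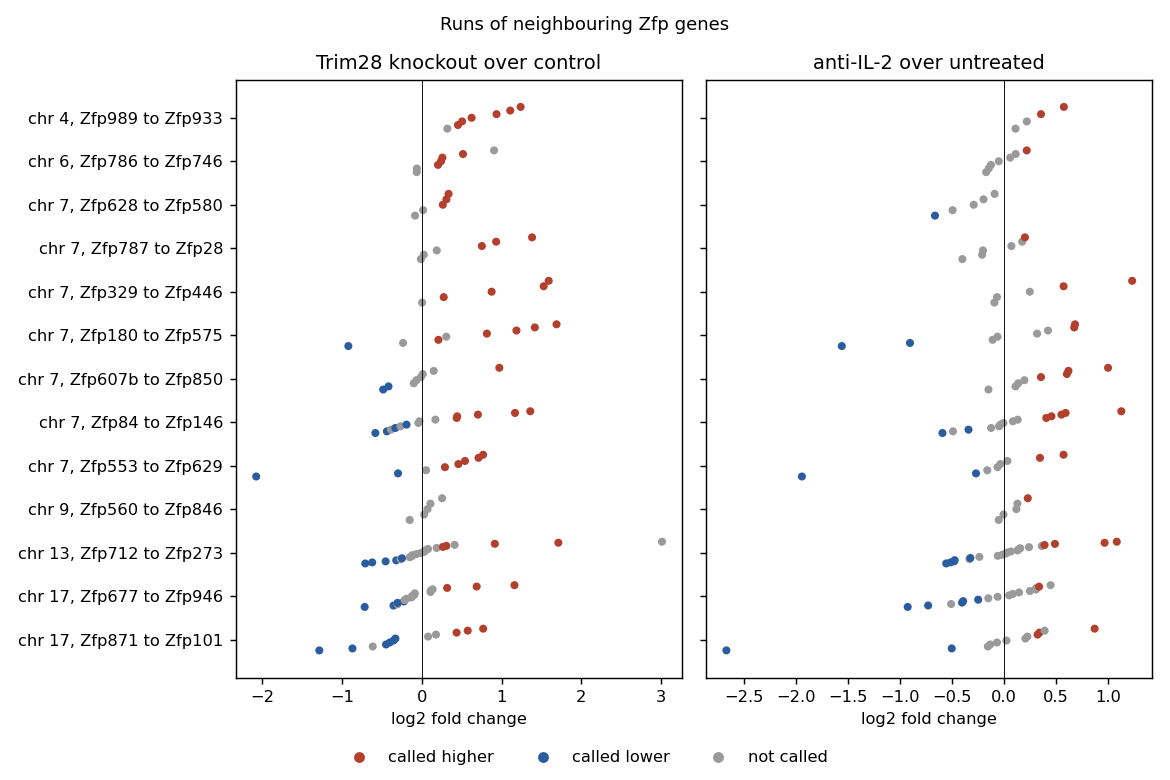
Fitted log2 fold change (x axis) of every member in the 13 runs of neighbouring Zfp genes (rows) that had at least 5 members tested in the knockout, for Trim28 knockout over control (left) and anti-IL-2 over untreated (right), coloured by call. The chromosome 4 run and the run from Zfp329 to Zfp446 beside Trim28 are among 6 runs with no member called lower in the knockout, and the runs of chromosomes 13 and 17 have calls on both sides.

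A smaller share of Zfp genes than of all genes was called with IL-2 blockade. Of 314 members, 79 rose and 64 fell in blocked cells and 171 did not pass, where 31.4% of all genes were called higher and 28.9% lower, 60.3% together. For members the shares were 25.2% and 20.4%. Groups did not overlap for 228 of 314 members, and for 79.3% of all genes. At 2-fold or more, 14 were higher and 7 lower, against 4.86% and 10% of all genes. Without untreated replicate 1 fewer members were called lower, as was so over all genes. DESeq2 called 45 members higher and 51 lower, and 3250 and 3262 of all 13978 genes.

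Zfp608, a repressor of the Rag genes in mouse thymocytes, nearly vanished with IL-2 blocked. It had 10.5 and 24.9 normalised reads in blocked libraries, against 313 and 324 in untreated libraries, or -4.21 on the log2 scale (SE 0.25, adjusted p = 4.34e-11). Zfp629 had 30.5 and 37.4, against 126 and 141 (log2 fold change -1.95, SE 0.18). Zfp36 had 639 and 705, against 1570 and 1622 (-1.25, SE 0.07), and Zfp703, a transcriptional co-repressor, had 817 and 802, against 1816 and 1894 (-1.19, SE 0.06). Both blocked libraries lay below both untreated ones for all 4. Zfp983, Zfp109, Zfp715 and Zfp948, all KRAB genes, fell by between 0.73 and 0.93 on the log2 scale. Zfp469, tested in this table alone because it was high in untreated cells, had 2.86 and 2.88, against 37.4 and 58.7.

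Zfp362 had the largest rise with blockade, at 1375 and 1549 normalised reads in blocked libraries, against 227 and 267 in untreated libraries (log2 fold change 2.56, SE 0.09, adjusted p = 6.37e-15). Zfp248, a KRAB gene, had 98.3 and 95.9, against 37.4 and 29.9 (1.51, SE 0.19). Zfp239 had 302 and 314, against 121 and 129 (1.30, SE 0.11), with libraries of each group close together. Zfp318 had 1497 and 1420, against 638 and 639 (1.19, SE 0.06). Zfp808 (64 and 54.7, against 23.9 and 23.7), Zfp41 (179 and 181, against 75.9 and 81.4) and Zfp493 (54.4 and 50.8, against 22.9 and 25.7) also more than doubled.

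By role, silencers had 2 higher and 1 lower of 5 tested with blockade, where 31.4% of all genes were higher and 28.9% lower. Zfp568 had 1158 and 1008 normalised reads in blocked cells, against 828 and 802 in untreated cells, and rose (log2 fold change 0.41, SE 0.07). Zfp932, a silencer of endogenous retroviruses, had 248 and 195, against 185 and 169, a call lost without blocked library A (adjusted p = 0.404), untreated replicate 1 (0.0818) or 2 (0.242). Zfp809 had 748 and 795, against 925 and 993, and fell (-0.31). Zfp445 had 3043 and 2515, against 2649 and 2642, and did not pass (0.434). In the lymphocyte list Zfp318 rose and Zfp36 and Zfp335 fell, Zfp335 at 813 and 906, against 1262 and 1244. Promoter and chromatin partners had 4 higher and 3 lower of 13, RNA and ribosome genes 4 and 4 of 12, and cell division genes 2 and 1 of 4. Zfp622, a ribosome maturation factor, had 1369 and 1377, against 1969 and 1891, and fell (-0.49). Of the 2 stem cell and developmental genes tested, Zfp703 fell and Zfp296 had 305 and 362, against 374 and 300.

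Set side by side over the 300 members tested in both, 46 were higher in both experiments and 38 lower in both, while 81 were called in neither. Over all 12428 genes tested in both, 22.5% were higher in both and 18.1% lower in both. Higher in the knockout and lower with blockade were 5 members, and the reverse 4, where 3.48% and 2.11% of all genes were. The 2 experiments share no library. The correlation of the log2 fold changes was 0.584 across members and 0.60 across all genes, a description over genes that share the libraries. Shared by name were Zfp362, Zfp324, Zfp808 and Zfp60 among those higher, and Zfp629, Zfp948, Zfp715 and Zfp281 among those lower. Zfp60, a KRAB gene, had 172 and 162 normalised reads in the knockout, against 82.2 and 87.2 in the control, and 256 and 266 with blockade, against 143 and 117 untreated. Zfp715 had 622 and 598, against 936 and 963, and then 759 and 688, against 1314 and 1264.

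**Figure D4:**
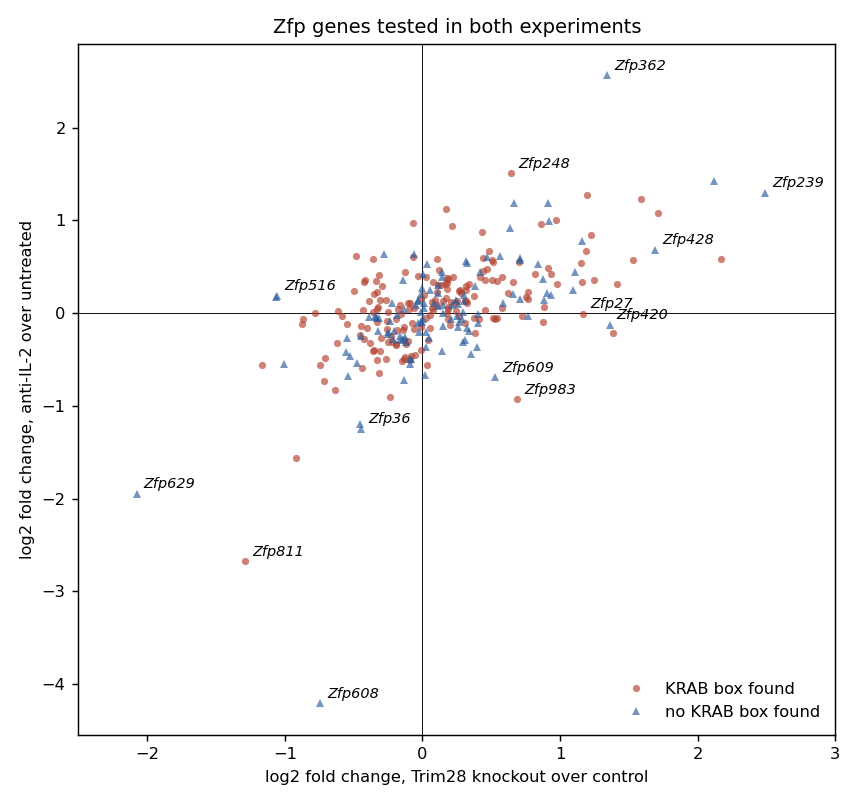
Fitted log2 fold change in Trim28 knockout over control (x axis) and with anti-IL-2 over untreated (y axis) for the 300 members tested in both, with KRAB members as circles and the others as triangles. Zfp362 and Zfp629 lie at opposite ends of the diagonal, and Zfp608 lies far below it, at -0.75 and -4.21.

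The difference between the 2 effects, tested in a fit of all 8 libraries, passed for 82 members, with 51 where the knockout effect was the higher and 31 where it was the lower. Over all genes 24.7% and 17% passed, 41.7% together. Zfp608 differed most, at 3.46 on the log2 scale (SE 0.36, adjusted p = 9.24e-06). Zfp420 (1.49, SE 0.17) and Zfp27 (1.18, SE 0.15) rose in the knockout, while with blockade Zfp420 had 194 and 165, against 216 and 176, and Zfp27 had 202 and 188, against 190 and 202. Zfp445 was of the same kind (0.82, SE 0.10). Zfp516 (-1.24, SE 0.17) and Zfp871 (-0.80, SE 0.10) fell in the knockout and did not pass with blockade. Zfp362 rose in both but more with blockade (-1.23, SE 0.13).

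Few members were called in opposite directions. Zfp609, which binds the cohesin loader Nipbl and the Integrator complex in mouse neural progenitors, had 1882 and 1724 normalised reads in the knockout, against 1213 and 1286 in the control, and rose (log2 fold change 0.53, SE 0.05). With blockade it had 1713 and 1556, against 2639 and 2629, and fell (-0.69, SE 0.06), and the difference of 1.22 passed (SE 0.08, adjusted p = 1.43e-07). Zfp983 had 158 and 144, against 88.2 and 98.3, and with blockade 83.1 and 75.8, against 161 and 143, a difference of 1.62 (SE 0.18); its knockout call was lost without knockout replicate 1 (0.0502). Zfp341 and Zfp414 had the same pattern with smaller changes, and their knockout calls were lost without some libraries: for Zfp341 without knockout replicate 1 (0.0578) or 2 (0.0735) or control replicate 2 (0.0518), for Zfp414 without knockout replicate 2 (0.0823), control replicate 1 (0.106) or 2 (0.0888). The blockade call for Zfp414 was lost without untreated replicate 2 (0.135). The reverse pattern, lower in the knockout and higher with blockade, was held by Zfp367, Zfp120, Zfp607a and Zfp974. For each of these 4 the knockout call was lost without at least 3 of the 4 libraries in turn. The blockade call was lost without blocked library A for Zfp120 (adjusted p = 0.363), Zfp607a (0.233) and Zfp974 (0.134), and without untreated replicate 1 for all 4 (between 0.0694 and 0.241), and the tested differences ran from -0.50 to -1.10.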

How the data were processed

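PolyA RNA was sequenced from 8 libraries, 2 in each of 4 groups, in 2 experiments. The submitters' processing notes name the build mm10 and the tools DESeq2, StringTie (2.1.4), Trim Galore (0.4.4) and HISAT2 (2.2.1), with no order; the counter, annotation and filters are not given in the sources used here. The deposited values are a signal per gene, read counts divided by a size factor, called normalised reads here: 100% of values were whole reads within 0.001 after rescaling. The authors also deposited log2 fold changes, a Wald score and p-values, which were not used.

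Genes that reached 10 in 2 or more libraries entered limma 3.58.1 (trend) on log2(value + 1) in R 4.3.3, each experiment alone and, for the difference of the effects, all 8 libraries together. P-values were adjusted by Benjamini-Hochberg over all genes tested, and a call needed an adjusted p below 0.05. Fold changes on this scale understate those of low genes. Alternatives were edgeR 4.0.16 and DESeq2 1.42.0 on the recovered reads, other scalings, a pseudocount of 10, no filter, a mean of at least 100, other run lengths and leaving out each library. The code was tested on simulated data. Replicates differed by more than sampling noise (chi-square per gene between 1.32 and 3.87), so none was a copy of the other's reads. That does not show that they came from separate mice or cultures.

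Positions, exon lengths and coding sequences came from GENCODE on GRCm38. KRAB and SCAN domains were found with pyhmmer 0.12.3 profiles in Python 3.11.15 on translated coding sequences, where RefSeq proteins had been planned. Genes were named by a rule: the largest called changes, the smallest adjusted p of each role list, genes called in both experiments, the highest levels and the largest differences. Genes of the described runs, Zfp469, Zfp708, Zfp811 and the rows near the filter were chosen after their values were seen, as were the motifs searched; longer forms of the ZNF143-type and NRF1-type motifs were searched first and then shortened. The members and lists were chosen with earlier results of these data known.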

Additional observations from a re-analysis of the deposited data

Results flagged for a closer look

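Each value here is the log2 effect of the knockout minus that of IL-2 blockade, and each was singled out because limma's test of that difference passed an adjusted p of 0.05. The experiments were run apart, so a difference between them and a difference between the treatments cannot be told apart. Of 300 members, 51 had the higher effect in the knockout and 31 the lower. Among genes of the pathway, Setdb1 differed by 2.33 and Trim28 by -3.79.

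Members that fell with blockade and fell by less in the knockout, or were not called there, were Zfp608 (3.46), Zfp36 (0.80), Zfp703 (0.74), Zfp827 (0.58), Zfp335 (0.45) and Zfp622 (0.40). Members fitted higher in the knockout and below 0 with blockade were Zfp983 (1.62), Zfp420 (1.49), Zfp609 (1.22) and Zfp27 (1.18). So were Zfp341 (0.79), Zfp414 (0.61) and Zfp384 (0.40). The blockade fit of Zfp27 was only -0.007 and the knockout fit of Zfp384 only 0.027. Members fitted higher in both, and more so in the knockout, were Zfp94 (1.10), Zfp428 (1.01), Zfp128 (0.96), Zfp445 (0.82), Zfp143 (0.56) and Zfp598 (0.45).

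In the other direction, Zfp362 (-1.23), Zfp248 (-0.87) and Zfp318 (-0.53) were called higher in both and more so with blockade. The knockout call for Zfp248 (adjusted p = 0.0467) was lost without knockout replicate 2 (0.126), control replicate 1 (0.193) or 2 (0.139), and with DESeq2 (0.381). Zfp871 (-0.80), Zfp386 (-0.75), Zfp518a (-0.46) and Zfp91 (-0.16) were fitted lower in both, and more so in the knockout. Zfp516 (-1.24), Zfp974 (-1.10), Zfp395 (-0.92), Zfp951 (-0.78), Zfp607a (-0.77), Zfp120 (-0.58), Zfp367 (-0.50), Zfp568 (-0.44), Zfp638 (-0.33) and Zfp217 (-0.27) were fitted below 0 in the knockout and above 0 with blockade. The knockout fit of Zfp217 was only -0.001 and that of Zfp568 only -0.03, and the blockade fit of Zfp951 was only 0.0015. Leaving out a library ended the call for some differences. Without knockout replicate 1 they were fitted at -0.20 for Zfp217 and 0.90 for Zfp128. Fits were 0.86 for Zfp428 without knockout replicate 2 and -0.50 for Zfp951 without untreated replicate 2. The difference for Zfp91 did not pass without any of 7 of the 8 libraries left out in turn (adjusted p between 0.0605 and 0.155), and that for Zfp248 without 6 of them (0.0601 to 0.163).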

How the results depend on the processing

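Under the alternatives 2433 checks were made of 59 named members and of Trim28 and Setdb1. Of these checks, 2250 gave the same direction and call, 161 lost a call, 22 gained one and none turned a called direction round. Members named for the largest changes had groups that do not overlap, so leaving out a library could not reverse them within an experiment. The other genes of the pathway were not checked. Counts of calls moved more, over all genes too. In the knockout DESeq2 called 2846 of all 15415 genes higher and 2660 lower, where limma called 5065 and 4344. DESeq2 on recovered reads called 43 Zfp genes higher and 34 lower in the knockout (107 and 78 with limma), 21 and 12 in the KRAB class, and 18 and 8 in runs; with blockade it called 45 higher, 20 and 20 in the KRAB class, and 13 and 13 in runs. A mean of at least 100 left 71 higher in the knockout (37 KRAB, 28 in runs) and, with blockade, 27 KRAB and 18 in runs higher; fewer genes were tested. With no filter, the lower calls were 27 in the KRAB class of the knockout, 37 with blockade (13 KRAB, 8 in runs) and 19 for the difference, and the higher calls with blockade were 24 KRAB and 16 in runs. The cause was not tested. Upper-quartile scaling gave 82 members higher and 84 lower in the knockout, and 4157 and 4951 of all genes.

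Leaving out 1 library at a time gave 65 to 82 higher and 39 to 53 lower in the knockout, 34 to 45 and 21 to 27 in the KRAB class, and 26 to 34 and 13 to 17 in runs. With blockade it gave 57 to 89 higher and 42 to 65 lower, 27 to 46 and 17 to 31 in the KRAB class, and 15 to 29 and 14 to 22 in runs. For the difference it gave 42 to 54 and 22 to 38. In the knockout, calls over all genes fell as well with each library left out. The lone library left in a group is then assumed to vary like the others. Same-numbered knockout and control libraries did not deviate together (correlation -0.25 over 10335 genes), so the numbers were not taken as pairs: the replicate block gave 101 higher and 69 lower, and crossed pairs, chosen after seeing the data, 109 and 78. For the blockade no paired analysis was possible, because the columns of blocked libraries do not show which replicate each is. With 2 libraries a group, small changes of weakly read genes were not detectable at this depth.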

Other observations

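Members were also counted by the number of C2H2 fingers found. In the knockout, where 32.9% of all genes were higher and 28.2% lower, 24 of 56 members with 0 to 4 fingers were higher and 14 lower. There were 28 and 20 of 80 with 5 to 9 fingers, 36 and 23 of 114 with 10 to 14, and 19 and 21 of 66 with 15 or more. With blockade, where 31.4% of all genes were higher and 28.9% lower, the counts were 25 and 13 of 55, 16 and 17 of 82, 24 and 20 of 110, and 12 and 13 of 63, in the same order of finger number. Median levels in that order were 328, 215, 108 and 146 normalised reads in the knockout table and 490, 292, 131 and 215 in the blockade table. The part of level in the counts was not tested.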
